A study of Xenopus tropicalis with 30 samples.

Results

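Start-to-end loci of adult female western clawed frogs (Xenopus tropicalis) were compared at their 5′ and 3′ ends, using 12 of the 30 libraries of the series. The start level of a locus came from WTSS-seq, which reads transcription start sites, and its end level from WTTS-seq, which reads poly(A) sites. Along a strand, in the direction of transcription, a locus took in start sites and then the poly(A) sites after them, and was closed by a gap over 20000 bases or by a start site that came after a poly(A) site. The 28527 loci measured 4742 bases at the median and 1 to 112800 bases at the extremes, and 28315 had counts in females. The files name no genes, so loci are given by sequence, strand and position, and exons, introns and UTRs were not assigned.

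The 6 female WTSS-seq libraries and the 6 female WTTS-seq libraries were made from whole bodies of adults. Per the series design, the same 6 individual females entered both assays. Total RNA was taken up in Trizol in both. For WTSS-seq, ribosomal RNA was depleted before first-strand synthesis, size selection and PCR. For WTTS-seq, RNA was fragmented and enriched for poly(A) tails before the same later steps. The 2 assays differ in more than the end they read, so the transcript end and the assay cannot be told apart in any start-to-end ratio below. For reference, 6 adult males were prepared by both assays, and RNA pooled from 3 females was prepared as WTSS-seq in 2 libraries and as CAGE, a method that captures the cap, in 1.

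Transcription of a messenger RNA begins at a start site, where the 5′ cap is added, and ends in cleavage and the addition of a poly(A) tail at a poly(A) site. Many genes use alternative start sites or alternative poly(A) sites, which change the 5′ leader, the 3′ untranslated region or the coding part of the transcript. A finished messenger RNA carries a start and an end, so counts of both ends would report on the same molecules if both were sampled evenly and joined to the same locus. In whole bodies, fewer cells of a type and less RNA per cell cannot be told apart.

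Libraries held 2061766 to 6231392 counts at starts and 2394832 to 6624765 counts at ends. The start library of female 3 stood apart. The left-out scaffold NW_016683531.1 took 67.2% of its counts, against 1.56% to 15.5% in the other 5 start libraries and 0.00805% to 0.0305% in the end libraries. Outside that scaffold, loci held 92.1% to 93.8% of the counts at starts and 90.4% to 93.5% at ends. TMM factors, which scale the libraries, lay between 0.562 and 0.777 at starts and between 1.31 and 2.12 at ends without overlap. Levels are counts per 1000000 locus counts (CPM) on the TMM scale unless stated otherwise. Each assay counts an end of a transcript, so levels were not divided by length.

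Start and end levels of the same locus differed widely. Of the 15381 loci with enough counts to test, 6683 had the higher level at their starts (43.4%) and 5518 at their ends (35.9%), so 79.3% passed an adjusted p of 0.05 in edgeR's quasi-likelihood test. Of the called loci, 10119 (82.9%) had no overlap between the 6 start and the 6 end levels. The median absolute log2 ratio over all tested loci was 3.51, and the fold exceeded 16 at 6809 of them (44.3%). These figures include 732 loci with start counts only and 86 with end counts only, which entered the test through a single end and could only differ. Among the other 14563 tested loci, 5951 were higher at starts (40.9%) and 5432 at ends (37.3%), 78.2% in all. Their median absolute log2 ratio was 3.29, and the fold exceeded 16 at 5991 (41.1%). The filter could be met at a single end, so loci with few counts at the other end, which favours a call, remain among these 14563. A log2 ratio within 1 of zero was found at 2390 loci (15.5%), and 3180 loci (20.7%) were not called. The split between the directions moved with the scaling. Loci higher at starts made up 54.8% of the calls with TMM and 42.1% with library totals alone, where 5237 loci were higher at starts and 7205 at ends. The median log2 ratio of the tested loci was 0.43 with TMM, 1.18 with RLE size factors and -0.93 with library totals. Loci with small ratios therefore have no fixed direction.

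**Figure D1:**
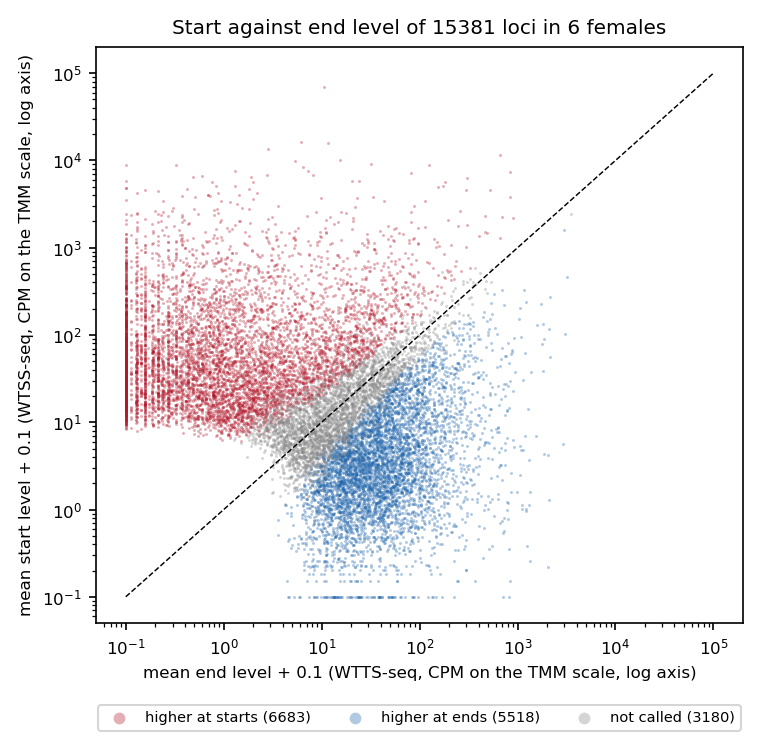
Mean start level (vertical axis, WTSS-seq) against mean end level (horizontal axis, WTTS-seq) of the 15381 tested loci in 6 females, both in CPM on the TMM scale plus 0.1 on log axes. Red points are the 6683 loci called higher at starts, blue points the 5518 called higher at ends and grey points the 3180 not called, with the dashed line marking equal levels.

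In the plot of start against end levels, many loci called higher at starts lie at the left edge, where end levels were at or near zero, and most loci not called lie around the line of equal levels. Loci called higher at starts had median levels of 49.8 CPM at starts and 0.864 CPM at ends, with a median log2 ratio of 5.96. Together they held 89.6% of the start counts and 7.92% of the end counts in loci. Loci called higher at ends had median levels of 2.96 CPM at starts and 39.2 CPM at ends, with a median log2 ratio of -3.52. They held 2.84% of the start counts and 76.5% of the end counts. Median lengths, compared without a test, were 5961 bases for loci higher at starts and 3634.5 bases for those higher at ends. Loci higher at starts had a mean of 2.92 start and 1.88 poly(A) sites, and those higher at ends a mean of 1.91 start and 3.25 poly(A) sites.

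The 10 loci with the highest start-to-end ratio were taken from called loci with no overlap between the ends, 10 CPM or more at starts and 10 or more end counts. They had mean start levels of 1765 to 70279 CPM and mean end levels of 0.129 to 10.4 CPM. In males, whose libraries were not used to choose them, 10 of 10 also had the higher level at starts. Of all loci higher at starts in females and tested in both sexes, 90.6% were called so in males. Nothing particular to these 10 is read from the count. The highest ratio belonged to a locus of 126 bases on the minus strand of chromosome 7, 114613830 to 114613955. Its start levels were 695 CPM at the lowest, 2646 CPM at the median and 2942 CPM at the highest, against end levels of 0, 0 and 0.774 CPM. A single end library held all 10 of its end counts, and the log2 ratio was 13.33 ± 1.10 (SE, edgeR adjusted p = 1.05e-07).

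The locus with the most start counts in females lay on the minus strand of chromosome 2, 39401727 to 39401987, and spanned 261 bases with a single start and a single poly(A) site. Start levels were 15814, 74839.5 and 98184 CPM (lowest, median, highest), against end levels of 0, 0 and 59.8 CPM. The lowest start level was that of female 3, and the log2 ratio was 12.75 ± 2.27 (SE, edgeR adjusted p = 0.000118). This locus alone took a mean of 4.16% of the locus counts of a start library. On library totals, the CAGE library gave it 361 CPM, against 28491 CPM in the WTSS-seq libraries of the same pool. For comparison, its mean over the 6 female start libraries on that scale was 41647 CPM, and males averaged 2068 CPM.

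A locus of 9897 bases on the plus strand of chromosome 10, 14402877 to 14412773, had start levels of 4567, 4997 and 6031 CPM (lowest, median, highest). Its end levels were 0, 0.0836 and 4.01 CPM, which gives a log2 ratio of 13.03 ± 1.39 (SE, edgeR adjusted p = 9.24e-07). Start levels were high in all 6 animals. The next locus downstream began 8 bases further on, and averaged 8.74 CPM at its starts and 637 CPM at its ends.

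The start mean of another of the 10 moved with a single library. On the minus strand of chromosome 6, 88633998 to 88659841, start levels were 989, 1349 and 16743 CPM (lowest, median, highest) against end levels of 0, 0 and 2.67 CPM. The highest value was that of female 3, and the mean of 3984 CPM became 1433 CPM without that animal. The log2 ratio was 12.92 ± 1.66 (SE, edgeR adjusted p = 5.22e-06).

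**Figure D2:**
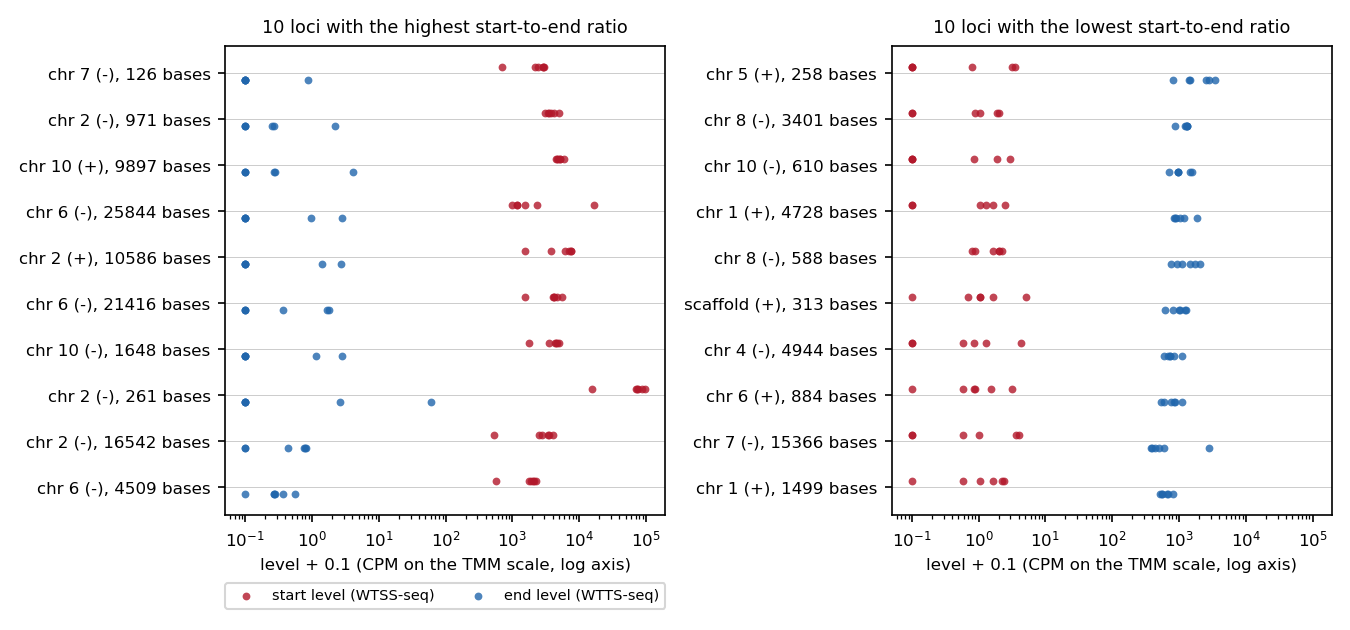
Start levels (red, WTSS-seq) and end levels (blue, WTTS-seq) of the 6 females at the 10 loci with the highest (left) and the 10 with the lowest (right) start-to-end ratio, in CPM on the TMM scale plus 0.1 on a log axis, with each point a library. In the left panel mean start levels run from 1765 to 70279 CPM, and in the right panel mean end levels run from 628 to 2094 CPM. Both sets of loci were chosen to have no overlap between the ends.

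The 10 loci with the lowest ratio were taken from called loci with no overlap between the ends, 10 CPM or more at ends and 10 or more start counts. They had mean start levels of 0.903 to 1.51 CPM and mean end levels of 628 to 2094 CPM. All 10 also had the higher level at ends in males, where 86.1% of all loci higher at ends in females and tested in both sexes were called so. Again nothing particular to these 10 is read from it. The lowest ratio was found on the plus strand of chromosome 5, 16784388 to 16784645, a locus of 258 bases with 1 start and 2 poly(A) sites. Start levels were 0, 0.355 and 3.37 CPM (lowest, median, highest), against end levels of 822, 2009 and 3495 CPM. The log2 ratio was -10.51 ± 0.96 (SE, edgeR adjusted p = 2.30e-07). A locus upstream, 207 bases away, averaged 23.2 CPM at its starts and 7.33 CPM at its ends.

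The end mean of another locus in this list moved with a single animal. On the minus strand of chromosome 7, 61317803 to 61333168, start levels were 0, 0.695 and 3.89 CPM (lowest, median, highest) and end levels 384, 467 and 2838 CPM. The highest end level was that of female 4, without which the end mean was 462 CPM in place of 858 CPM. The log2 ratio was -9.20 ± 1.01 (SE, edgeR adjusted p = 1.18e-06). On the plus strand of chromosome 1, 82320916 to 82325643, the CAGE library of the pool gave 1032 CPM on library totals, against 0.992 CPM in WTSS-seq of the same pool. There the individual females averaged 0.592 CPM at starts and 1797 CPM at ends on that scale, so the CAGE value lay far above both WTSS-seq values and below the end level. In the other 9 loci of the list the CAGE level was at most 2.12 CPM.

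Of the 100 loci with the highest mean start level and the 100 with the highest mean end level, 5 were shared, which is 5% of each list, while 100 loci are 0.351% of all 28527. The median end level of the start list was 1.77 CPM, and 42 of its loci averaged under 1 CPM at their ends. Over all loci the median end level was 1.74 CPM, and 42.9% averaged under 1 CPM, so the start list was close to the rest at its ends. The median start level of the end list was 14.4 CPM, and 17 of its loci averaged under 1 CPM at their starts, against 4.42 CPM and 22.4% over all loci. The shared loci lay on chromosomes 1, 7, 8 and 9 and on the mitochondrial sequence. Among them, the locus on the plus strand of chromosome 7, 105388814 to 105391300, had start levels of 1315, 7959 and 10113 CPM (lowest, median, highest) against end levels of 573, 790.4 and 1362 CPM. The lowest start level lay just below the highest end level, with a log2 ratio of 3.12 ± 0.51 (SE, edgeR adjusted p = 5.70e-05).

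Of the 10 loci with the highest start level, 10 were called higher at starts, against 43.4% of all tested loci, which the ranking by start level favours, so nothing is read from the count. The levels overlapped in 1 of them, a locus of 1349 bases on the minus strand of scaffold NW_016685997.1, 3682 to 5030. Its start levels were 0.779, 5.46 and 56321 CPM (lowest, median, highest) against end levels of 0, 4.99 and 10.4 CPM. Female 3 gave the highest start level and female 4 gave 2319 CPM, while the other 4 start levels lay within the range of the end levels. The log2 ratio was 10.87 ± 2.84 (SE, edgeR adjusted p = 0.00270), and the start mean of 9776 CPM became 467 CPM without female 3. With the animal number as a block the adjusted p was 0.363, and over 23 alternatives it ran from 0.00177 to 0.363. The second in this order, on the plus strand of scaffold NW_016686743.1, 182 to 2161, had start levels of 7703, 18161 and 21268 CPM (lowest, median, highest) against end levels of 0, 4.73 and 15.5 CPM without overlap.

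Chromosome 5 held the locus of this list with the highest end level, on the plus strand, 61406537 to 61412937, with 10 start sites and 1 poly(A) site. Start levels were 6494, 8508 and 28305 CPM (lowest, median, highest), against end levels of 434, 640.4 and 1013 CPM. The levels did not overlap, and the log2 ratio was 4.12 ± 0.53 (SE, edgeR adjusted p = 4.98e-06). Female 2 gave the highest start level, and without it the start mean was 8150.0 CPM in place of 11509 CPM.

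Of the 10 loci with the highest end level, 9 were called higher at ends, against 35.9% of all tested loci, and the ranking by end level again favours that direction. The highest was the mitochondrial locus on the plus strand, 298 to 1237, with start levels of 678, 1392 and 7766 CPM (lowest, median, highest) and end levels of 1977, 3123 and 6517 CPM. The ranges overlapped and the ratio was not called (log2 ratio -0.56 ± 0.58 SE, edgeR adjusted p = 0.389). Its direction turned with RLE size factors and with DESeq2, to a log2 ratio of 0.19 in both. On the plus strand of chromosome 4, 83536848 to 83551185, a locus of 10 start and 2 poly(A) sites had start levels of 192, 497 and 615 CPM (lowest, median, highest) against end levels of 2067, 2941 and 4685 CPM. There the ends were higher without overlap (log2 ratio -2.76 ± 0.41 SE, edgeR adjusted p = 2.06e-05).

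A locus on the plus strand of chromosome 1, 39550799 to 39551864, sat close to the threshold. Start levels were 1133, 1595 and 1931 CPM (lowest, median, highest), and end levels were 1641, 2868 and 4734 CPM. The ranges overlapped, with a log2 ratio of -0.91 ± 0.38 (SE, edgeR adjusted p = 0.0416). Under 14 of 24 alternatives the call was lost, among them the replicate block with an adjusted p of 0.179, and over all 24 the adjusted p ran from 1.76e-05 to 0.772.

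Some highly covered loci had the other end at or near zero. On the plus strand of chromosome 10, 3747802 to 3750127, a single count at starts stood against 71760 at ends. The end counts, summed over the 6 libraries and scaled for their sizes, were 20137 times the start count, with a 95% counting interval of 3614 to 795382. Among loci with no end count in females, the most covered lay on the plus strand of chromosome 9, 32717849 to 32719831. Its start levels were 3386, 9236 and 12997 CPM (lowest, median, highest). Summed over the 6 libraries and scaled for their sizes, its start counts were at least 109501-fold higher than an end floor of 3 counts over the group. Over the 5 loci named for this class, that bound ran from 42580-fold to 109501-fold. Among loci with no start count in females, the most covered lay on the plus strand of chromosome 2, 61130039 to 61132808. Its end levels were 554, 855 and 936 CPM (lowest, median, highest). Summed and scaled in the same way, its end counts were at least 2889-fold higher than a start floor of 3 counts over the group. Over the 5 loci of that class the bound ran from 475-fold to 2889-fold. Intervals and floors cover counting error only, since PCR copies are not separate molecules.

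In all, 2666 loci had start counts only, and they held 7.68% of the start counts. A further 886 had end counts only, with 0.947% of the end counts. Of these, 732 and 86 had enough counts to test, and passing the filter through a single end left no other outcome than a difference, so no share of calls is given for them.

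The 5 loci with 100 CPM or more at both ends and the most even levels had ratios between -0.03 and 0.04 on the log2 scale, with overlapping levels in each. The highest of them lay on the minus strand of chromosome 6, 77508485 to 77518958, at 798 ± 144 CPM at starts and 790 ± 199 CPM at ends (SD, n = 6 each, edgeR adjusted p = 0.968). The others averaged 116 to 372 CPM at starts and 120 to 362 CPM at ends. The widest spread among animals was found on the minus strand of chromosome 7, 45444084 to 45452082, at 27.4 to 365 CPM at starts and 11.9 to 313 CPM at ends. With RLE size factors or library totals, the locus on chromosome 6 moved to log2 ratios of 0.77 and -1.36, in step with the shift of all loci.

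Start counts were spread over more loci than end counts and were at the same time more concentrated at the top. A start library detected 22734 ± 1197 loci and an end library 17687 ± 1824 loci (SD, n = 6 each). Start sites were listed also on counts of males and of the pool, and poly(A) sites also on counts outside all libraries used. The effect on these numbers was not tested. The 100 highest loci of a library took 34.0% ± 2.18 of its locus counts at starts and 19.3% ± 1.10 at ends (SD, n = 6 each, exact two-sided permutation p = 0.00216, the smallest that 924 splits allow). Start shares ran from 31.7% to 36.9% and end shares from 18.2% to 20.9%, so the groups did not overlap. Paired by animal, an exact sign-flip test gave p = 0.03125, the smallest that 64 flips allow. It took 299.8 ± 32.4 loci to hold 50% of the start counts and 844 ± 54.4 loci to hold 50% of the end counts.

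**Figure D3:**
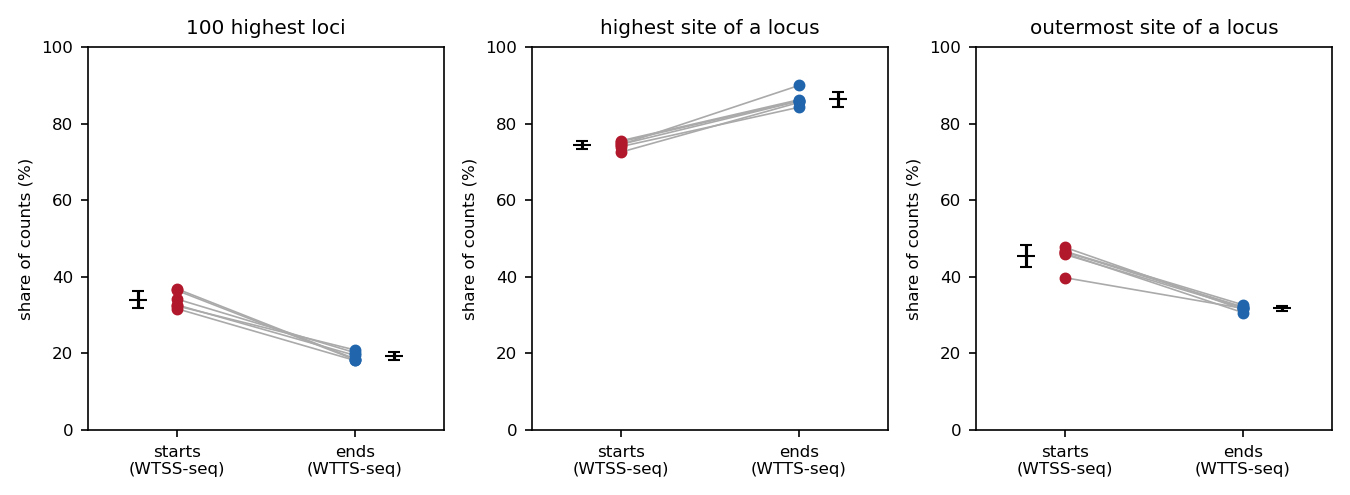
Share of counts (vertical axis, %) in the 100 highest loci of a library (left), in the highest site of a locus (middle) and in the outermost site of a locus (right), for starts and ends. Points are libraries, grey lines join both libraries of a female, and black bars give the mean and SD of 6. The share in the highest loci was 34.0% at starts and 19.3% at ends, and the share of the highest site was 74.4% at starts and 86.3% at ends.

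Within a locus the order was the other way round. At the 2215 loci with 2 or more start and 2 or more poly(A) sites and a mean of 20 or more counts at each end, the highest site took 74.4% ± 1.06 of the start counts and 86.3% ± 1.92 of the end counts (SD, n = 6 each, exact two-sided permutation p = 0.00216). Starts ran from 72.6% to 75.5% and ends from 84.3% to 90.0%, without overlap. Paired by animal, the exact sign-flip p was 0.03125, again the smallest possible. These loci held a mean of 3.96 start sites and 3.80 poly(A) sites, and the effective number of sites was 1.82 ± 0.0473 at starts and 1.38 ± 0.0633 at ends. At the 204 loci with exactly 2 sites at each end, a check added after the values were seen, the shares were 86.3% ± 0.742 at starts and 93.6% ± 1.55 at ends. At the 547 loci with 100 or more counts they were 79.3% at starts and 88.6% at ends. The sites of all these loci were listed on more counts than those of the 6 females. Start sites were listed also on counts of males and of the pool, and poly(A) sites also on counts outside all libraries used. The part of this in the contrast was not tested. The most upstream start site held 45.4% ± 2.84 of the start counts, and the most downstream poly(A) site held 31.8% ± 0.684 of the end counts. In the plot of these shares, starts and ends take the same order in each of the 6 females, within each of the 3 panels.

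The direction of the difference followed the number of sites. Of 3913 tested loci with 2 or more start sites and 1 poly(A) site, 68.3% were called higher at starts and 16.2% higher at ends. Of 3942 tested loci with 1 start site and 2 or more poly(A) sites, 22.3% were called higher at starts and 58.2% higher at ends. Loci with 2 or more of both were nearly even, with 1928 higher at starts and 1841 higher at ends among 5248. In these classes, loci with counts at a single end, which could only be called 1 way, were left in. At the 2278 tested loci with a single site at each end, 1202 were higher at starts and 747 at ends. Of the 2046 among them with counts at both ends, 995 were higher at starts and 722 at ends. Sites entered the deposited tables by their counts, so the number of sites is not independent of the level.

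Locus length was compared on library totals, among loci with 1 CPM or more at both ends. The median log2 ratio was -1.21 ± 0.58 at the 4046 loci under 2000 bases and -0.66 ± 0.22 at the 1782 loci over 20000 bases (SD, n = 6 animals). The difference of -0.55 ± 0.49 did not pass an exact sign-flip permutation test (p = 0.0938, smallest possible 0.03125), and short loci had the lower ratio in 5 of 6 females. Between these classes the order was not even. The lowest ratios were those of loci of 500 to 2000 bases, between -2.20 and -0.98 over the animals. Medians over the animals were -1.61 for 2000 to 5000 bases and -0.90 for 5000 to 20000 bases. Loci of up to 500 bases had -0.62, with a range of -1.37 to 1.03 over the animals.

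Within a female, start levels said little about end levels locus by locus. Across the 28527 loci, Pearson's r of the log2 levels of her start and end libraries had a median of 0.0746 and ran from 0.0576 to 0.171 over the 6 animals. Spearman's rho had a median of 0.0815. By contrast, r was 0.905 between start libraries of different females (0.795 to 0.938, 15 pairs) and 0.868 between their end libraries (0.802 to 0.910, 15 pairs). These values describe loci that share libraries and depth, and are given without a test.

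The value rose when sites were joined over wider stretches. In units made of all sites of a strand in whatever order, added after the values were seen, the median r was 0.0671 at a largest gap of 500 bases, 0.198 at 2000 bases, 0.362 at 5000 bases and 0.620 at 20000 bases. The last kind comprised 12659 units with a mean of 10.6 sites, while a unit at 500 bases held a mean of 3.43 sites. A wide unit may hold several neighbouring genes. In loci that keep the order of starts before ends, the gap mattered less, with a median r of 0.0382 at 5000 bases and 0.0840 at 50000 bases. Restricting loci to sites of 5 CPM or more gave 0.104 over 5443 loci.

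**Figure D4:**
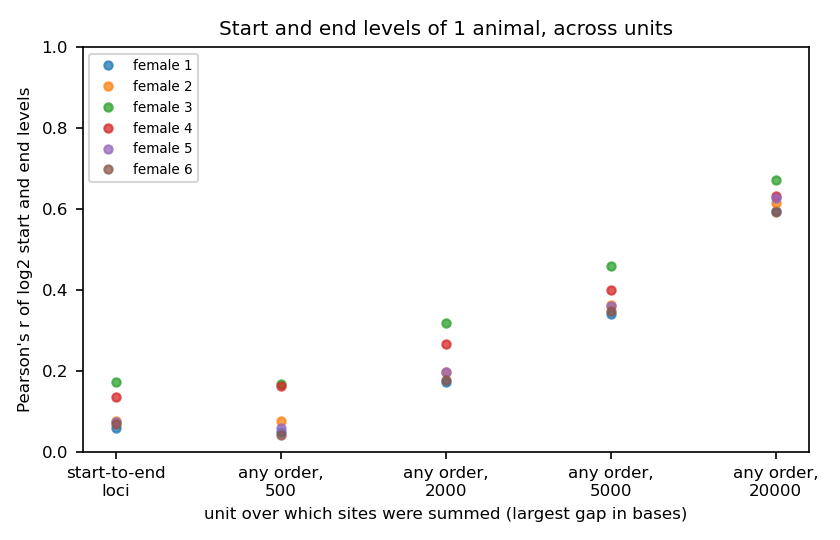
Pearson's r across units between log2 start and log2 end levels of the same female (vertical axis), with a point per animal. The horizontal axis gives the unit over which sites were summed, with start-to-end loci first and units of any order by their largest gap in bases, where the median r was 0.0671, 0.198, 0.362 and 0.620 from the narrowest to the widest.

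The plot of r by unit shows females 3 and 4 above the others in the narrower units and all 6 animals close together in the widest. Neighbouring loci of a strand, within 20000 bases and both tested, formed 5842 pairs. The upstream locus was higher at starts in 3325 (56.9%) and at ends in 1453 (24.9%), and the downstream locus was higher at starts in 2141 (36.6%) and at ends in 2466 (42.2%). Of the pairs, 1521 (26.0%) had an upstream locus higher at starts and a downstream locus higher at ends. The reverse order was found in 653 pairs (11.2%). In 1091 pairs (18.7%) both were higher at starts, and in 507 pairs (8.68%) both were higher at ends. These shares were not tested against the totals of each direction.

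The start and end libraries of an animal did not detectably match each other. After the mean of each assay was taken off, the correlation over 13183 loci averaged 0.0131 between libraries of the same female (-0.0275 to 0.0608) and -0.00264 between libraries of different females (-0.0791 to 0.101). The difference of 0.0158 did not pass an exact two-sided permutation test over all 720 pairings (p = 0.432, n = 6 animals). The best match was the animal's own end library for 2 of 6 start libraries, and its own start library for 1 of 6 end libraries. Among 3435 loci of 10 CPM or more at both ends, the median SD of the log2 level over the animals was 0.63 at starts and 0.59 at ends. Without female 3 it was 0.41 at starts and 0.61 at ends, so that single start library decided which end varied more.

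Libraries of pooled females also read the starts. Their counts entered the totals by which start sites were listed, so the shares of loci with CAGE counts are not independent of that list. Across loci, the CAGE library correlated with the mean female start level (r = 0.629) and hardly with the mean end level (r = 0.0206). The WTSS-seq libraries of the same pool had r = 0.890 with female starts and r = 0.172 with female ends, over 28527 loci in each case. Of the loci called higher at starts in individual females, 94.8% had CAGE counts, with a median of 35.6 CPM on library totals, and CAGE exceeded the end level in 78.7%. Of those called higher at ends, 59.2% had CAGE counts, with a median of 0.424 CPM, and CAGE exceeded the end level in 5.24%. Over all loci, 65.6% had CAGE counts, with a median of 0.847 CPM, and CAGE exceeded the end level in 38.5%. Each of these medians takes in the loci without CAGE counts, and 0.424 CPM is 1 count and 0.847 CPM 2 counts of that library. In the pool's WTSS-seq libraries the level exceeded the female end level at 95.4% of the loci higher at starts, against 53.7% of all loci. The calls used the same end levels, so shares above the end level are set in part by the choice of loci. Whether the 3 pooled females were among the 6 individuals is not given in the sources used here.

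Shares of the counts by chromosome differed between the ends for 6 of 12 chromosomes or compartments (exact two-sided permutation tests, Benjamini-Hochberg adjusted over the 12). Chromosome 2 took 16.1% ± 1.65 of the start counts and 11.9% ± 0.151 of the end counts (SD, n = 6 each, exact permutation, adjusted p = 0.00866). Without the locus of 261 bases described above, its shares were 12.4% ± 0.484 at starts and 11.9% ± 0.151 at ends (exact permutation p = 0.0390). Chromosome 4 took 8.68% ± 0.310 at starts and 10.9% ± 0.267 at ends, and chromosome 6 took 5.70% ± 0.402 at starts and 6.51% ± 0.186 at ends (exact permutation, adjusted p = 0.00866 in both). On these 3 chromosomes the start and end shares did not overlap. Leaving out the highest start locus of a chromosome moved others too. Chromosome 3 then held 9.79% ± 0.275 at starts and 11.1% ± 0.568 at ends (exact permutation p = 0.00216, not adjusted). Chromosomes 5 and 10 were then lower at starts (exact permutation p = 0.0498 and 0.0195, not adjusted), and 4 and 6 stayed lower. The mitochondrial sequence was then lower too (exact permutation p = 0.0346, not adjusted), and chromosome 7 stayed higher. The locus left out was chosen by these start counts, and no end locus was left out. That choice favours a lower share at starts, so nothing is read from the shares that became lower.

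Chromosomes 7 and 8 and the unplaced scaffolds also passed, but with overlapping shares. Chromosome 7 held 8.89% ± 1.39 at starts and 7.60% ± 0.317 at ends (SD, n = 6 each, exact permutation, adjusted p = 0.0325). Female 3 gave its highest start share with 11.5%, and the other 5 ran from 7.80% to 9.32%. Chromosome 8 held 8.72% ± 0.389 at starts and 9.27% ± 0.293 at ends (SD, n = 6 each, exact permutation, adjusted p = 0.0433). The scaffolds held 8.58% ± 2.19 at starts and 11.1% ± 0.570 at ends (SD, n = 6 each, exact permutation, adjusted p = 0.0433), and female 3 gave the highest start share with 13.0%. With any single end library left out, 3 chromosomes passed, those without overlap. Sign flips over the animals passed none of the 12 (exact sign-flip test, lowest adjusted p = 0.0938), and 64 flips allow no unadjusted p below 0.03125.

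**Figure D5:**
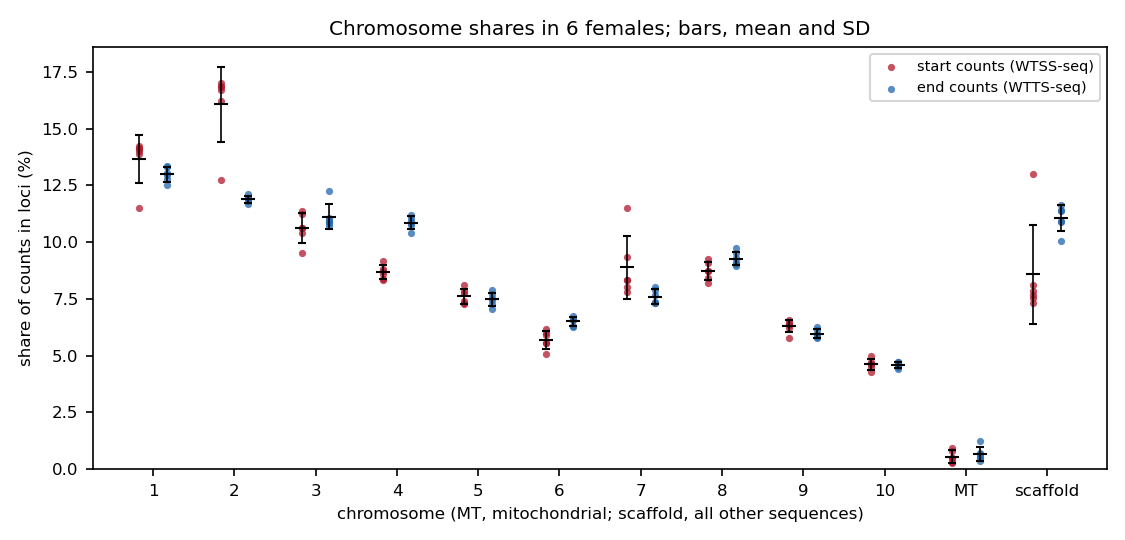
Share of locus counts (vertical axis, %) by chromosome, mitochondrial sequence (MT) and all other sequences (scaffold) at starts (red) and ends (blue) in 6 females, with points for libraries and black bars for the mean and SD. Chromosome 2 stands highest at starts, at 16.1% against 11.9% at ends, and chromosome 4 is lower at starts, at 8.68% against 10.9% at ends.

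The mitochondrial sequence took 0.549% ± 0.274 of the start counts and 0.661% ± 0.299 of the end counts (SD, n = 6 each, exact permutation, adjusted p = 0.567). It held 22 loci, of which 14 were tested, with 7 called higher at starts and 2 higher at ends, against 43.4% and 35.9% of all tested loci. Its transcripts come from long precursors of both strands and have no cap, so its start sites are 5′ ends of another kind. On library totals, the CAGE library still gave 10017 CPM to the plus-strand locus at 1598 to 9187. It gave 3566 CPM to the locus at 298 to 1237, while its median over the 22 loci was 0.212 CPM. The reason was not tested. The widest locus, on the plus strand at 1598 to 9187, had start levels of 2075, 3541 and 6961 CPM (lowest, median, highest) against end levels of 0, 0 and 6.39 CPM. Start levels were far above end levels in every animal (log2 ratio 11.65 ± 1.57 SE, edgeR adjusted p = 8.74e-06). The next locus on that strand, 11276 to 14261, had start levels of 774, 1210.2 and 3984 CPM (lowest, median, highest) against end levels of 224, 259 and 544 CPM. It was also higher at starts without overlap (log2 ratio 2.60 ± 0.51 SE, edgeR adjusted p = 0.000270). On the minus strand, the locus at 13643 to 13880 had start levels of 139, 289.7 and 679 CPM (lowest, median, highest) against end levels of 0, 1.63 and 15.4 CPM. The locus at 15929 to 17256 of that strand was higher at ends, at 43.7 ± 21.2 CPM at starts and 105 ± 29.8 CPM at ends with overlapping levels (SD, n = 6 each, edgeR adjusted p = 0.00657). Its call was lost under 3 of 24 alternatives, with an adjusted p of 9.62e-06 to 0.228 over all of them.

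Most of the start-to-end differences of females were also found in males, whose libraries the female calls did not use. In males 13100 loci were tested, of which 5832 were higher at starts (44.5%) and 4299 higher at ends (32.8%), 77.3% in all. Of the 7657 loci called in females and tested in both sexes, 6784 (88.6%) were called the same way in males, and 59 the opposite way. This held for 3853 of 4254 loci higher at starts in females (90.6%) and for 2931 of 3403 higher at ends (86.1%).

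The ratio itself depended on sex at 1549 of 9339 loci tested in both (16.6%, sex by assay term, edgeR adjusted p under 0.05). The start-to-end ratio of females was higher at 772 of them and lower at 777. This split moved with the scaling, to 1020 higher and 488 lower with RLE size factors, and 737 higher and 1012 lower with library totals. A subset kept the 6 females and only those males whose start and end libraries could be tied to the same animal number. With these fewer males, 821 loci passed without a block and 125 with the animal number as a block. The even locus on the minus strand of chromosome 6, 77508485 to 77518958, was among the 1549. On library totals it averaged 494 CPM at starts and 1267 CPM at ends in females, against 104 CPM at starts and 3338 CPM at ends in males. Its ratio was higher in females by 3.77 on the log2 scale (edgeR adjusted p = 2.96e-06). The locus on the plus strand of chromosome 10, 3747802 to 3750127, had 0.0920 CPM at starts and 3282 CPM at ends in females, against 3.53 CPM at starts and 9309 CPM at ends in males, and its ratio was lower in females (log2 difference -3.76, edgeR adjusted p = 0.00230). The 261-base locus on chromosome 2 was not among them (log2 difference -1.39, edgeR adjusted p = 0.617).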

How the data were processed

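Per the file headers and their values, the deposited tables hold raw counts of each site in each library, for 69857 start sites and 98277 poly(A) sites whose totals are 25 or more. Start totals and the counts of the start libraries have the same sum, 6.24e+07. Poly(A) totals sum to 1.09e+08, against 4.54e+07 in the end libraries, so these totals include further counts. The sources used here do not name an aligner, a clustering method or a genome build. Chromosome numbers follow the order of the sequence names. Of 30 libraries, 27 were used, with 0 library columns left aside. In the start table, 3 male columns could not be tied to an animal number.

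Positions were shifted to count from 1, and scaffold NW_016683531.1 (26 start and 40 poly(A) sites) was left out. Locus sums were compared in edgeR 4.0.16 under R 4.3.3 by its quasi-likelihood F test, with TMM scaling, filterByExpr by assay and Benjamini-Hochberg adjustment at 0.05. Standard errors were taken as the log2 ratio over the root of F. Single values per library or animal were compared by exact permutation or sign flips, enumerated in full with numpy 2.4.6. Correlations used log2 CPM with 0.5 added. The edgeR steps were tested on simulated data in which few loci differed between the assays, evenly in both directions. Most tested loci differed in the real data, so that test does not cover the scaling used here. Alternatives used limma 3.58.1, DESeq2 1.42.0, RLE factors, library totals, other filters and gaps, a replicate block and fits lacking 1 library each.

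Animal numbers pair the assays, since the series design says that the same females entered both. Deviations of same-numbered libraries correlated at 0.0131 on average, against -0.00264 for different numbers. Replicates are separate animals per the labels.

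Members, lists and tests were chosen with earlier results of these data known. Named loci are the 10 called ones with the highest and the 10 with the lowest ratio (no overlap, 10 CPM or more at the higher end, 10 or more counts at the lower), the 10 highest at each end, the 5 most even at 100 CPM or more, the 5 most covered with 0 counts at the other end, in each direction, and the mitochondrial loci. The shared high locus described on chromosome 7 was chosen after its values were seen.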

Additional observations from a re-analysis of the deposited data

Results flagged for a closer look

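Of 122 groups of 6 values tested for a value far from the others (loci were tested only where every library of the group had counts), 27 were flagged, where chance flags about 1 in 20 groups. The start library of female 3 gave 14 of them. It was lowest for the share of table counts in loci, at 30.2% against 78.0% in the next library. Its shares were lowest for chromosome 1, at 11.5%, and chromosome 2, at 12.7%, and highest for the scaffolds, at 13.0%. Its start levels were lowest at the loci on chromosome 7 (-) from 114613830, at 695 CPM, chromosome 2 (-) from 39401727, at 15814 CPM, chromosome 6 (-) from 123429416, at 564 CPM, chromosome 3 (-) from 81925155, at 2758 CPM, and chromosome 9 (-) from 22922463, at 3341 CPM. They were highest at chromosome 6 (-) from 88633998, at 16743 CPM, NW_016685997.1 (-) from 3682, at 56321 CPM, chromosome 1 (-) from 81001003, at 166 CPM, chromosome 7 (+) from 105372692, at 1056 CPM, and NW_016684566.1 (-) from 6932, at 292 CPM. The scaffold left out of the loci held 67.2% of the counts of this library. Outside that scaffold, loci held 92.1% of its counts, against 92.3% to 93.8% in the other start libraries. The part of the scaffold in the other flagged values was not tested.

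The other start libraries gave 4 flags. Female 2 was highest at chromosome 5 (+) from 61406537, with 28305 CPM. Female 4 was highest at the mitochondrial loci (+) from 298, with 7766 CPM, and (-) from 11304, with 33.5 CPM. Female 5 was highest at the mitochondrial locus (-) from 11755, with 28.5 CPM.

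Among end libraries, that of female 6 was highest for the share of the highest site, at 90.0%, and at the mitochondrial locus (-) from 15498, at 12.7 CPM. It was lowest at chromosome 8 (-) from 62565183, at 885 CPM, and chromosome 1 (+) from 91304453, at 80.7 CPM. Female 4 was highest for the share of chromosome 3, at 12.3%, at chromosome 7 (-) from 61317803, at 2838 CPM, and at the mitochondrial locus (-) from 4377, at 28.7 CPM. Female 1 was highest at chromosome 1 (+) from 82320916, at 1856 CPM. Female 3 was highest at the mitochondrial locus (+) from 11276, at 544 CPM.

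The start-to-end ratio differed between females and males at 11 of 62 named loci with a test of that difference (17.7%, sex by assay term, edgeR adjusted p under 0.05), against 16.6% of all loci tested. The female ratio was higher at 5 of them, by log2 differences of 9.27 at chromosome 5 (+) from 89402076, 6.64 at chromosome 6 (-) from 123429416, 6.39 at chromosome 9 (-) from 22922463, 3.77 at chromosome 6 (-) from 77508485 and 3.13 at the mitochondrial locus (+) from 298. It was lower at 6 of them, by -5.92 at chromosome 2 (+) from 61130039, -5.49 at the mitochondrial locus (-) from 10150, -5.18 at chromosome 5 (+) from 58049071, -4.38 at chromosome 1 (-) from 166487928, -3.76 at chromosome 10 (+) from 3747802 and -3.37 at chromosome 8 (-) from 109999020. At 5 of the 11 loci females had 0 counts at an end, and the fitted difference there depends on the prior count.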

How the results depend on the processing

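Calls between the ends ran from 9703 to 17882 over scalings, filters, gaps and tools, and the number of loci tested moved too. The lowest was 9703 of 12179 tested at a gap of 5000 bases, and the highest 17882 of 28315 with no filter. The main fit called 12201 of 15381. Without each library in turn, calls ran from 11860 of 15550 to 13650 of 17329. Loci higher at starts numbered 10999 of 28315 with no filter, and 6278 of 15550 to 7696 of 17151 without each library in turn. DESeq2 left 162 adjusted p values undefined. The count of chromosomes was 3 with the scaffold kept, 0 with the replicate block and 3 to 7 without each library in turn. In the block, 64 sign flips allow no unadjusted p below 0.03125. A pass after adjustment over the 12 needed most of them at that floor, so nothing is read from the 0. Joining sites in any order moved the median r to 0.198, 0.362 and 0.620. With the males limited to those tied by number at both ends, 821 loci depended on sex without a block and 125 with the replicate block. Of 65 named loci, 42 kept their direction, call and value under every alternative run, 10 lost or gained a call, and 2 turned. The mitochondrial locus (+) from 298, at -0.56, gave 0.19 with RLE factors and with DESeq2, and that (-) from 3610, at 0.59, gave -0.86 with library totals. The cause was not tested. The replicate block ended the calls at chromosome 1 (+) from 39550799 and NW_016685997.1 (-) from 3682, and no other named call.

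The share of the 100 highest loci differed by 14.2 to 15.2 percentage points and that of the highest site by -12.3 to -11.2 without each library in turn, each at the smallest exact permutation p of 0.00216. The length difference ran from -0.69 to -0.45 without each animal (exact sign-flip p of 0.0625 to 0.188), and the own-animal match from 0.00350 to 0.0308 (exact p of 0.275 to 0.908). The own-animal match passed in none of them. With an animal left out, sign flips allow no p below 0.0625, so the length test could not pass there and nothing is read from it. Levels of a few counts set the ratios of the most uneven loci. Sites with a total below 25 are not listed. For poly(A) sites that total reaches beyond the end libraries, so sites with fewer than 25 counts in them can still be listed.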
